A study of Oncorhynchus mykiss with 30 samples.

Results

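The comparison described here is the step between 2 neighbouring concentrations of 17α-ethynylestradiol (EE2), a synthetic oestrogen: the 6 gonad pools exposed to 1 μg/L were set against the 6 exposed to 0.1 μg/L. These 12 arrays were chosen by their labels out of the 30 of the series. All fish were all-male rainbow trout (Oncorhynchus mykiss) sampled at 136 days post-fertilisation, after 76 days of exposure that began at the first feeding on day 60. Each concentration was held in 3 tanks, and 2 pools of the paired gonads of 10 fish were taken from each tank, so that the 6 pools of a concentration stand for 3 tanks. The concentrations are nominal: the labels give measured means of 1.62 ± 1.74 μg/L for 1 μg/L and 0.08 ± 0.06 μg/L for 0.1 μg/L (SD). The other groups were pools exposed to 10 μg/L, to 0.01 μg/L and to the solvent alone (control), and no control array enters the difference. The labels call the tissue testis in every group.

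Oestrogens act mainly through nuclear oestrogen receptors, which bind DNA and change the transcription of their target genes. In fish, the fate of the young gonad is labile, and oestrogen given during the months of sex differentiation can turn a genetic male gonad towards an ovary. FOXL2, a forkhead transcription factor of granulosa cells, and aromatase, the enzyme that makes oestrogens, are the classical players of the ovarian pathway. A pool is a bulk sample of whole gonads, so fewer cells of a type and less RNA per cell cannot be told apart, and a pool can mix gonads of different morphology. No probe could be tied by name to a gene that defines testis, such as dmrt1 or amh, so the tissue label could not be checked against these genes here.

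Across the 60195 probes of the array, more probes were lower than higher in the step. At 1 μg/L, 2805 probes were lower (4.66% of all probes) and 964 were higher (1.6%) than at 0.1 μg/L, which makes 3769 probes in all (6.26%) at an adjusted p below 0.05 (limma, Benjamini-Hochberg over all probes). The majority of lower probes turned round with array weights, which called 5822 lower and 6893 higher probes, and it was smaller without replicate 1 at 0.1 μg/L, with 2298 lower and 1581 higher. The median log2 difference, always 1 minus 0.1 μg/L, was -0.96 over the lower probes and 0.92 over the higher ones, beside -0.03 over all probes. Changes of at least 2-fold were found for 1287 of the lower and 413 of the higher probes, changes of at least 4-fold for 135 and 49, and changes of at least 8-fold for 35 and 12. In 1580 of the lower and 264 of the higher probes, the 6 arrays at 1 μg/L did not overlap the 6 at 0.1 μg/L; over all probes, called or not, the arrays did not overlap in this way in 3.22% for lower and 1.13% for higher signal at 1 μg/L.

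Each of the 4 slides held arrays of both concentrations, and the step was also read within each slide. Of the lower probes, 2756 (98.3%) were below 0 on all 4 slides, beside 20.3% of all probes, and of the higher probes 924 (95.9%) were above 0 on all 4 slides, beside 17.1% of all probes. These shares use the arrays that made the calls and describe them only. The count of calls rested on single arrays. It lay between 1695 probes without replicate 3 at 1 μg/L and 5945 without replicate 2 at 0.1 μg/L. It was also more than 1.5 times away from 3769 without replicates 4 (2311) and 6 (2448) at 1 μg/L and without replicates 3 (2174), 4 (2288) and 6 (2500) at 0.1 μg/L. When the 2 pools of each tank were averaged first, 2205 probes were called, 1758 of them lower. Array brightness moved with the step: the 75th percentile of the unnormalised signal was 628 to 1224 units (median 811) at 1 μg/L and 468 to 960 units (median 638) at 0.1 μg/L, and with brightness as a covariate 1729 probes were called, 1464 of them lower.

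One of the 12 arrays had a dim region. On replicate 1 at 0.1 μg/L, 19.3% of the 15318 probes printed in the middle of the array lay at least 4-fold below the median of their group, against 0.0735% of its other probes and at most 0.418% of the middle probes on any other of the 12 arrays. The middle held 25.4% of all probes, 314 of the 2805 lower probes and 370 (38.4%) of the higher probes. When probes of the middle were left out before the fit, 3516 of 44877 probes were called, 2764 lower and 752 higher. Values of probes described below that were printed there are therefore also given without that array.

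The called probes were followed over all 5 concentrations. The median level of the 2805 lower probes was 9.24 log2 units in controls, 9.24 at 0.01, 8.99 at 0.1, 7.97 at 1 and 7.80 at 10 μg/L. Their signal was thus near that of the controls up to 0.1 μg/L. Array by array, the median over these probes was 7.60 to 8.24 at 1 μg/L and 8.72 to 9.31 at 0.1 μg/L. For the 964 higher probes the medians were 7.42 in controls, 7.29 at 0.01, 7.10 at 0.1, 8.10 at 1 and 8.23 at 10 μg/L. Array by array these probes had medians of 7.93 to 8.35 at 1 μg/L and 6.66 to 7.54 at 0.1 μg/L. The gap between the arrays at 1 and at 0.1 μg/L follows from the choice of the probes, whereas the levels in the controls and at 0.01 and 10 μg/L took no part in that difference.

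**Figure D1:**
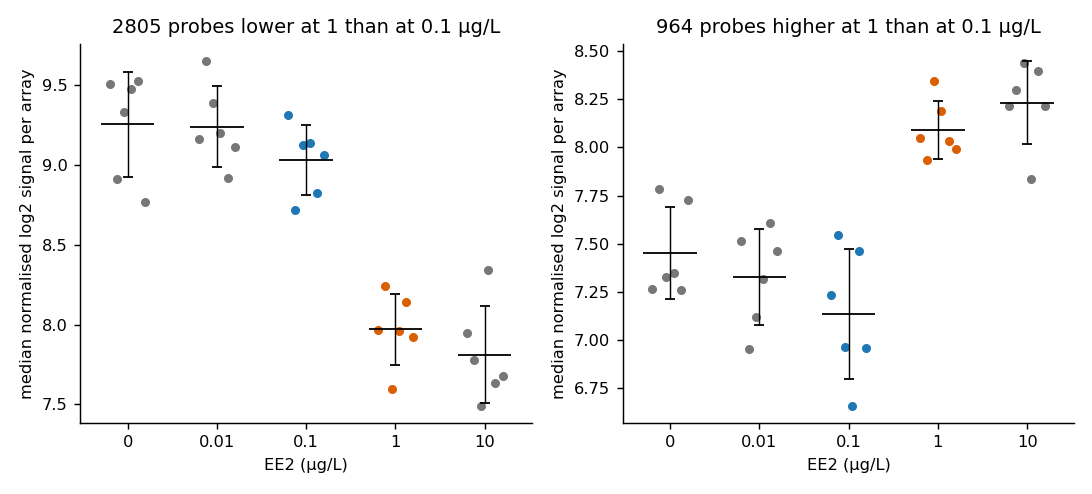
Median normalised log2 signal per array (y axis) over the 2805 probes lower (left) and the 964 probes higher (right) at 1 than at 0.1 μg/L, by nominal EE2 concentration (x axis, 0 is the solvent control). Points are the 6 arrays of a group, and lines with bars are their mean ± SD. The lower probes lay near 9 log2 units up to 0.1 μg/L and near 8 from 1 μg/L on, and the higher probes showed the opposite pattern around the same step.

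The pools at 10 and at 0.01 μg/L share no array with the step, and they gave the same direction for most of its probes. Of the 2805 lower probes, 2744 (97.8%) were also below 0 in 10 minus 0.01 μg/L, beside 47.6% of all probes, and 2364 of them (84.3%) were called lower at 10 μg/L, beside 13.9% of all probes. Of the 964 higher probes, 921 (95.5%) were above 0, beside 52.4% of all probes, and 572 (59.3%) were called higher at 10 μg/L, beside 13.4% of all probes. Calls in the opposite direction were found for 7 of the lower and 4 of the higher probes. The pools at 10 μg/L and the controls share no array with the step either, and in 10 minus control 2254 of the lower probes (80.4%) were called lower, beside 22.5% of all probes, and 541 of the higher probes (56.1%) were called higher, beside 21.7% of all probes. The 30 arrays were normalised together, share slides and share the estimate of each probe's spread in the fit. A probe with a small spread is more readily called in each comparison, so the shares called are not fully independent of the step.

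The groups at 10 and 0.01 μg/L, which hold no array of the step, were also used to place each array. Over the 16433 probes called between 10 and 0.01 μg/L, the position of an array was the median over probes of its distance from the mean at 0.01 μg/L, as a percent of the distance between the means at 0.01 and 10 μg/L. The pools at 1 μg/L lay at 83.6, 66.6, 110.9, 88.4, 79.3 and 89.6% (replicates 1 to 6, mean 86.4 ± 14.6%, SD). Those at 0.1 μg/L lay at 44.2, 54.6, 18.2, 23.9, 53.6 and 21.4% (mean 36.0 ± 16.7%, SD). The arrays at 1 μg/L were thus all nearer to the mean at 10 μg/L, and their positions did not overlap those at 0.1 μg/L. At 0.1 μg/L, replicates 1, 2 and 5 lay higher than replicates 3, 4 and 6. Among the controls, replicates 2 and 6, at 12.3 and 27.1%, stood apart from the other 4, which lay between -33.6 and -31.2%. In both groups the higher arrays were also the brighter ones. At 0.1 μg/L the 75th percentile of the unnormalised signal was 722, 842 and 960 units for replicates 1, 2 and 5. It was 554, 468 and 493 units for replicates 3, 4 and 6. Control replicates 2 and 6 had 1238 and 819 units, against 359 to 671 units for the others. At 1 μg/L replicates 1 to 6, with the positions above, had 628, 713, 1072, 904, 1224 and 717 units. The brightest of them, replicate 5, lay at 79.3%. At 0.01 μg/L replicates 1 to 6 had 1082, 648, 556, 979, 1100 and 742 units. Their positions were 7.1, -31.4, -8.0, 0.6, 24.3 and 8.8%. The part of brightness in the positions was not tested.

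**Figure D2:**
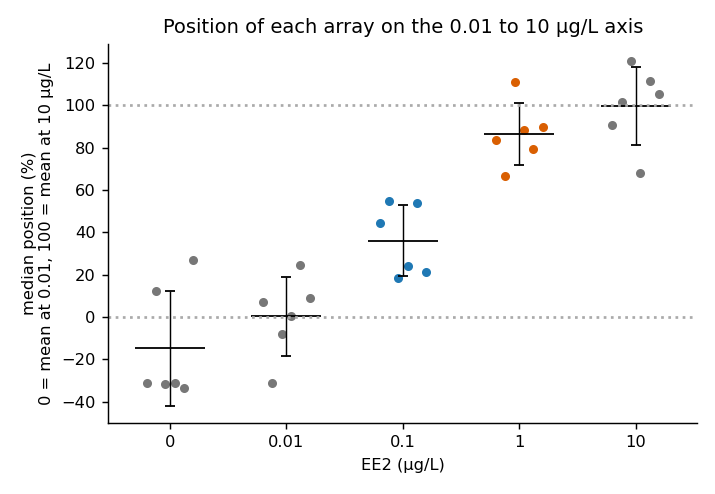
Position of each of the 30 arrays (y axis, percent; 0 is the mean at 0.01 μg/L and 100 the mean at 10 μg/L) by nominal EE2 concentration (x axis), as a median over the 16433 probes called between 10 and 0.01 μg/L. Points are arrays, and lines with bars are mean ± SD. Arrays at 1 μg/L lay between 66.6 and 110.9%, all above those at 0.1 μg/L, which lay between 18.2 and 54.6%; the groups at 0.01 and 10 μg/L define the scale.

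Arrays of 1 concentration also differed in how far they spread. The median within-group SD over all probes was 0.30 log2 units at 1 μg/L and 0.45 at 0.1 μg/L, beside 0.35 at 10 μg/L, 0.34 at 0.01 μg/L and 0.45 in controls. The groups at 0.45 were those that hold an array with a dim middle region, replicate 1 at 0.1 μg/L and control replicate 4. Both were also the groups described above as holding arrays that stood apart in position. The part of the dim arrays and of these positions in the SD was not tested. Between tanks of a concentration, 0 of 60195 probes passed an adjusted p of 0.05 in any of the 6 comparisons of tanks within 1 or within 0.1 μg/L (limma). Unadjusted p-values below 0.05 were found for 1100 to 6125 probes in these comparisons, each with 2 pools a tank.

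Most probes carry only the identifiers of the array design, so genes were named through the gene lists of the study and the few gene names on the array. The first list holds the study's specific biomarkers, genes it chose because they were called at 0.01 and 0.1 μg/L against the controls and at neither 1 nor 10 μg/L. Such a choice favours a return towards the control level at 1 μg/L, so the list is not independent evidence of a direction. Of its 7 identified probes, 2 were lower (beside 4.66% of all probes) and 2 were higher at 1 μg/L (beside 1.6%), and 3 did not pass the test. Their median log2 difference was 0.58, beside -0.03 over all probes.

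FOXL2 (probe TC126540), the ovarian transcription factor, fell in the step. Its log2 signal ran between 8.39 and 8.86 in the 6 pools at 1 μg/L, with a median of 8.66, against 9.47 to 10.05 and a median of 9.79 in the 6 pools at 0.1 μg/L. All pools at 1 μg/L lay below all pools at 0.1 μg/L. The log2 difference was -1.14 ± 0.26 (SE), or 2.21-fold lower at 1 μg/L (adjusted p = 0.00697, limma), and it lay between -1.26 and -0.99 on the 4 slides. Over the series, FOXL2 averaged 7.95 in controls, 9.93 at 0.01, 9.79 at 0.1, 8.65 at 1 and 8.69 at 10 μg/L. The step was thus where its signal came down from the level of the low concentrations. In 10 minus 0.01 μg/L the difference was -1.25, which the study's choice of the gene, called at 0.01 and not at 10 μg/L, likewise favours. In the fit used here, however, FOXL2 stayed above the controls at 10 μg/L, with a difference of 0.74 (adjusted p = 0.0201, limma).

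The gene spon2 (TC109462), which encodes spondin 2, a secreted matrix protein, moved in the same way at a much lower signal. Its levels were 4.07, 4.24, 4.00, 4.36, 3.37 and 4.69 at 1 μg/L, against 5.22, 4.93, 5.30, 5.05, 5.41 and 5.68 at 0.1 μg/L. The groups did not overlap, but the probe was well above background on only 3 of the 6 arrays at 1 μg/L, against 6 of 6 at 0.1 μg/L. The difference was -1.14 ± 0.33 (SE), with an adjusted p of 0.0364 (limma), and the call was lost in 10 of its 28 alternatives. The probe lies in the middle of the array, and without replicate 1 at 0.1 μg/L the difference was -1.15 (adjusted p = 0.0475, limma). The cell cycle inhibitor cdkn1b (TC128043) was on average 4.08 ± 0.34 at 1 μg/L and 4.76 ± 0.49 at 0.1 μg/L (SD), a difference of -0.68 ± 0.32 (SE) that did not pass the test (adjusted p = 0.180, limma). It was also printed in the middle, with -0.62 (adjusted p = 0.242, limma) without that array.

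The other members of this list are enzymes and carriers of energy metabolism, and they leaned the other way. SLC25A6 and SLC25A4 encode carriers that exchange ADP and ATP across the inner mitochondrial membrane. SLC25A6 (CUST_8591_PI425536763) was measured at 9.89, 10.74, 9.53, 9.97, 10.34 and 9.12 at 1 μg/L, against 9.40, 8.83, 8.61, 8.06, 8.52 and 8.38 at 0.1 μg/L. Apart from replicate 1 at 0.1 μg/L, which lay above replicate 6 at 1 μg/L, the pools were separate. It was 2.46-fold higher at 1 μg/L, with a log2 difference of 1.30 ± 0.31 (SE, adjusted p = 0.0114, limma).

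SLC25A4 (CUST_21720_PI425536763) had levels of 7.07, 7.76, 6.74, 7.11, 7.06 and 6.61 at 1 μg/L, against 7.09, 6.37, 6.13, 4.71, 6.07 and 5.84 at 0.1 μg/L. Again replicate 1 at 0.1 μg/L stood among the pools at 1 μg/L. The difference was 1.02 ± 0.26 (SE, adjusted p = 0.0176, limma), and the call was lost in 5 of 29 alternatives, with adjusted p-values up to 0.0818. Triosephosphate isomerase (TPI1), an enzyme of glycolysis, and the aldehyde dehydrogenase Aldh7a1 did not pass the test, with differences of 0.97 ± 0.32 and 0.58 ± 0.30 (SE) and adjusted p-values of 0.0615 and 0.207 (limma). Over the series, SLC25A6 averaged 9.72 in controls, 8.68 at 0.01, 8.63 at 0.1, 9.93 at 1 and 9.68 at 10 μg/L. Its lowest levels were thus at 0.01 and 0.1 μg/L, where FOXL2 was highest, and the study's choice of both genes favours such levels. The gene list of energy metabolism had these 4 genes as its only named probes. Of these, 2 were higher (beside 1.6% of all probes) and 0 lower, with a median of 1.00, beside -0.03 over all probes. All 4 come from the study's specific list, whose choice favours a return towards the controls at 1 μg/L. The count is therefore not independent evidence on energy metabolism. Probes labelled hexokinase, phosphoenolpyruvate, carnitine, L-3-hydroxyacyl-CoA and ATP-citrate on the array stand outside that gene list. They differed by 0.13, 0.37, 0.27, 0.16 and -0.48, and none passed the test (limma). Those labelled glucokinase and glucose-6-phosphatase differed by -0.40 and -0.64 near the background and did not pass either.

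**Figure D3:**
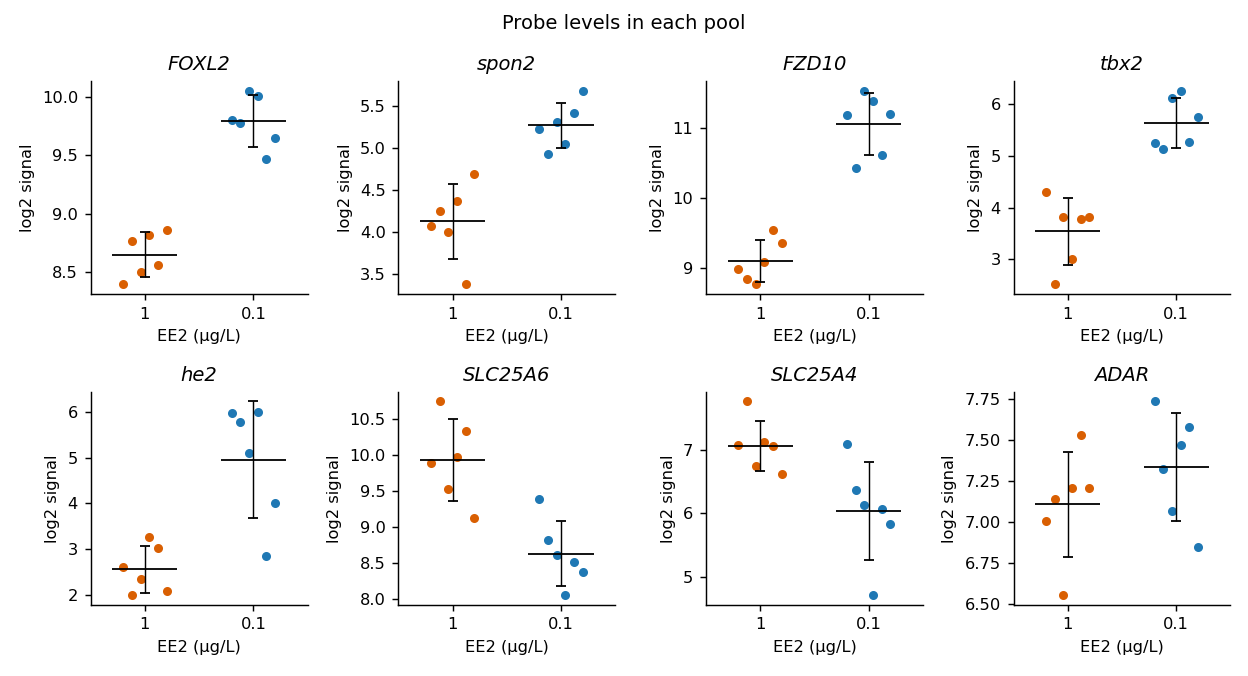
Normalised log2 signal (y axis) of 8 named probes in the 6 pools at 1 μg/L (orange) and the 6 pools at 0.1 μg/L (blue) of EE2. Points are pools, and lines with bars are mean ± SD. FOXL2, spon2, FZD10 (CUST_24234_PI425536763) and tbx2 do not overlap between the concentrations, he2, SLC25A6 and SLC25A4 do, and ADAR had means of 7.11 at 1 μg/L and 7.33 at 0.1 μg/L.

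A second list of 27 probes comes from a supplement of the study. It was drawn from the same set of genes as the first and by the same limit on the fold change, but holds genes outside the enriched pathways and terms to which the first list was restricted. Entries of that supplement beyond these 27 were not analysed here. Every one of the 27 had a higher mean at 0.01 μg/L than in controls. The choice of the list therefore favours a lower signal at 1 μg/L throughout, and its direction is likewise not independent evidence. All 27 were below 0 in the step, 15 passed the test (beside 4.66% of all probes called lower) and the median was -1.07, beside -0.03 over all probes. In 12 of the 27 the groups did not overlap, beside 3.22% of all probes. All 12 were among the 15 that passed, and over all called lower probes the share without overlap was 56.3%. Of its 8 probes printed in the middle of the array, 1 passed, against 14 of the 19 printed elsewhere. Control replicate 4 was dim in the middle as well, and its part in the control means of these 8 probes was not tested. Without replicate 1 at 0.1 μg/L, 17 of the 27 passed.

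Among those that fell, FZD10, a frizzled receptor for Wnt ligands, had 2 probes. The brighter one, CUST_24234_PI425536763, was at 8.77 to 9.55 at 1 μg/L (median 9.04), against 10.43 to 11.54 at 0.1 μg/L (median 11.21). The groups did not overlap, and their SDs were 0.30 at 1 μg/L and 0.44 at 0.1 μg/L. The log2 difference was -1.96 ± 0.27 (SE, adjusted p = 3.49e-05, limma). The dimmer FZD10 probe, TC119501, gave -1.18 ± 0.34 (SE), with overlapping groups and an adjusted p of 0.0354 (limma) that was lost in 12 of 29 alternatives.

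The T-box transcription factor gene tbx2 (TC115507) was measured at 4.30, 2.51, 3.81, 3.01, 3.78 and 3.82 at 1 μg/L, against 5.25, 5.13, 6.13, 6.27, 5.28 and 5.76 at 0.1 μg/L. It was well above background on all 6 arrays at 0.1 μg/L and on 0 at 1 μg/L. With the background of each array as a bound, it was at least 3.79-fold lower at 1 μg/L (adjusted p = 0.000247, limma). Over its 29 alternatives the log2 difference lay between -2.41 and -0.65. Noggin-3 (nog3), a secreted antagonist of bone morphogenetic proteins, averaged 8.35 ± 0.39 at 1 μg/L and 9.40 ± 0.24 at 0.1 μg/L (SD), a 2.08-fold lower signal at 1 μg/L (adjusted p = 0.0129, limma). The paired box gene pax2-B, printed in the middle of the array, had a difference of -1.81 ± 0.73 (SE, adjusted p = 0.118, limma), and of -2.77 (adjusted p = 0.000965, limma) without replicate 1 at 0.1 μg/L, where it lay at the lowest value of the array.

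Claudin 19, a tight junction protein, also had 2 probes, both bright. Cldn19 (CUST_6137_PI425536763) averaged 11.93 ± 0.45 at 1 μg/L and 13.01 ± 0.16 at 0.1 μg/L, and cldn19 (TC109027) averaged 11.89 ± 0.45 at 1 μg/L and 12.88 ± 0.21 at 0.1 μg/L (SD). Both were about equally lower, with log2 differences of -1.07 and -0.99 and adjusted p-values of 0.00306 and 0.00642 (limma). The glutamate receptor subunit Gria1 was 3.13-fold lower at 1 μg/L, with means of 5.48 ± 0.17 at 1 μg/L and 7.13 ± 0.55 at 0.1 μg/L (SD, adjusted p = 0.000526, limma). Synapsin-2 (SYN2), a protein of synaptic vesicles, differed by -1.09 ± 0.20 (SE, adjusted p = 0.00109, limma), and by -1.23 (adjusted p = 0.000229, limma) without replicate 1 at 0.1 μg/L, since its probe lies in the middle of the array.

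With all 12 arrays, the probe of the list with the largest difference carries the name metN2, a bacterial methionine importer, as given by the study. It was at 5.00, 4.54, 4.74, 4.97, 5.32 and 4.71 at 1 μg/L, against 7.96, 7.29, 7.41, 7.52, 6.94 and 7.84 at 0.1 μg/L. The log2 difference was -2.61 ± 0.38 (SE, adjusted p = 9.2e-05, limma), and the groups were far apart. Without replicate 1 at 0.1 μg/L its difference was -2.52, smaller than that of pax2-B. Luc7l2, named after an RNA-binding protein, followed with 5.27-fold lower signal at 1 μg/L (means 4.61 ± 0.45 at 1 μg/L and 7.01 ± 0.37 at 0.1 μg/L, SD). The probe of stch was well above background on 0 of 6 arrays at 1 μg/L and on 4 of 6 at 0.1 μg/L. Its signal was at least 1.99-fold lower at 1 μg/L (adjusted p = 0.00148, limma). Over its 28 alternatives the log2 difference lay between -1.98 and -0.31. The remaining called probes were Ptchd2, agtpbp1, CPZ and prosapip1b, with log2 differences between -1.67 and -1.02. The call of CPZ (-1.05 ± 0.31, SE, adjusted p = 0.0392, limma) was lost in 14 of 29 alternatives, that of prosapip1b in 2 and that of agtpbp1 in 1.

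The third list, the study's sensitive biomarkers, was chosen for the largest changes at 0.01 and 0.1 μg/L against the controls. That choice favours a large distance from the controls below the step, so such a distance is not independent evidence. It also used the arrays at 0.1 μg/L that enter the step. Of the 16 probes of the list, 1 passed the test in the step, a share close to the 6.26% of all probes, and the median was -0.08, beside -0.03 over all probes. Leaving out that probe, the differences of the other 15 lay between -0.34 and 0.85, with 8 below and 7 above 0 and standard errors of 0.19 to 0.62. In 12 of the 15 the difference was smaller than the SD of the pools at 0.1 μg/L. The same share over all probes was not computed, so the count does not set the list apart. Over all probes, that SD had a median of 0.45, and the difference had 10th and 90th percentiles of -0.64 and 0.71.

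ADAR (CUST_26298_PI425536763), an enzyme that edits adenosines in RNA, shows the pattern. It was at 6.55 to 7.53 at 1 μg/L (median 7.17), against 6.84 to 7.73 at 0.1 μg/L (median 7.39). The groups overlapped, and the difference of -0.23 ± 0.19 (SE) did not pass the test (adjusted p = 0.456, limma). In controls it averaged 12.99 and at 0.01 μg/L 10.10, so nearly all of its distance from the controls lay below the step. The study's choice of the gene favours a large distance there.

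LOC100136222, annotated by the study as CD8 beta, a co-receptor chain of T cells, was likewise far from the controls below the step, in the upward direction. It averaged 2.96 in controls, 6.21 at 0.01, 9.39 at 0.1, 9.18 at 1 and 8.59 at 10 μg/L, with a step of -0.21 ± 0.41 (SE, adjusted p = 0.780, limma). LOC795591, similar to an alpha tubulin, was among the brightest probes, at 17.63 to 17.80 at 1 μg/L and 17.50 to 17.73 at 0.1 μg/L, against a mean of 13.63 in controls. Its difference of 0.08 ± 0.36 (SE) was 0.11 without replicate 1 at 0.1 μg/L. The SDs were 0.06 at 1 μg/L and 0.08 at 0.1 μg/L, against 1.36 in controls, which enter the SE through the shared spread. THEG, a gene expressed in haploid male germ cells of mammals, differed by 0.85 ± 0.62 (SE, adjusted p = 0.381, limma). Its replicate 1 at 0.1 μg/L was at 8.62 while the other 5 pools lay between 13.03 and 13.69. Without that array the difference was 0.08. HES5, a transcription factor of the Notch pathway, differed by 0.20 ± 0.37 (SE, adjusted p = 0.763, limma), and by 0.42 (adjusted p = 0.469, limma) without that array.

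The exception of this list was he2 (TC113380), annotated as a hatching enzyme, a protease with which fish embryos digest the egg envelope. Its signal was 2.61, 1.99, 2.33, 3.26, 3.03 and 2.08 at 1 μg/L, against 5.99, 5.78, 5.11, 6.00, 2.84 and 4.02 at 0.1 μg/L. It was well above background on 0 of 6 arrays at 1 μg/L and on 4 of 6 at 0.1 μg/L, and replicate 5 at 0.1 μg/L lay among the pools at 1 μg/L. The signal was at least 2.85-fold lower at 1 μg/L (adjusted p = 0.00182, limma). The call was lost in 1 of 28 alternatives, over which the log2 difference lay between -2.83 and -0.49. In controls he2 averaged 12.93 and at 0.01 μg/L 9.09, so its mean was lower at each concentration up to 1 μg/L, where it had reached the background and no further decrease could be measured.

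**Figure D4:**
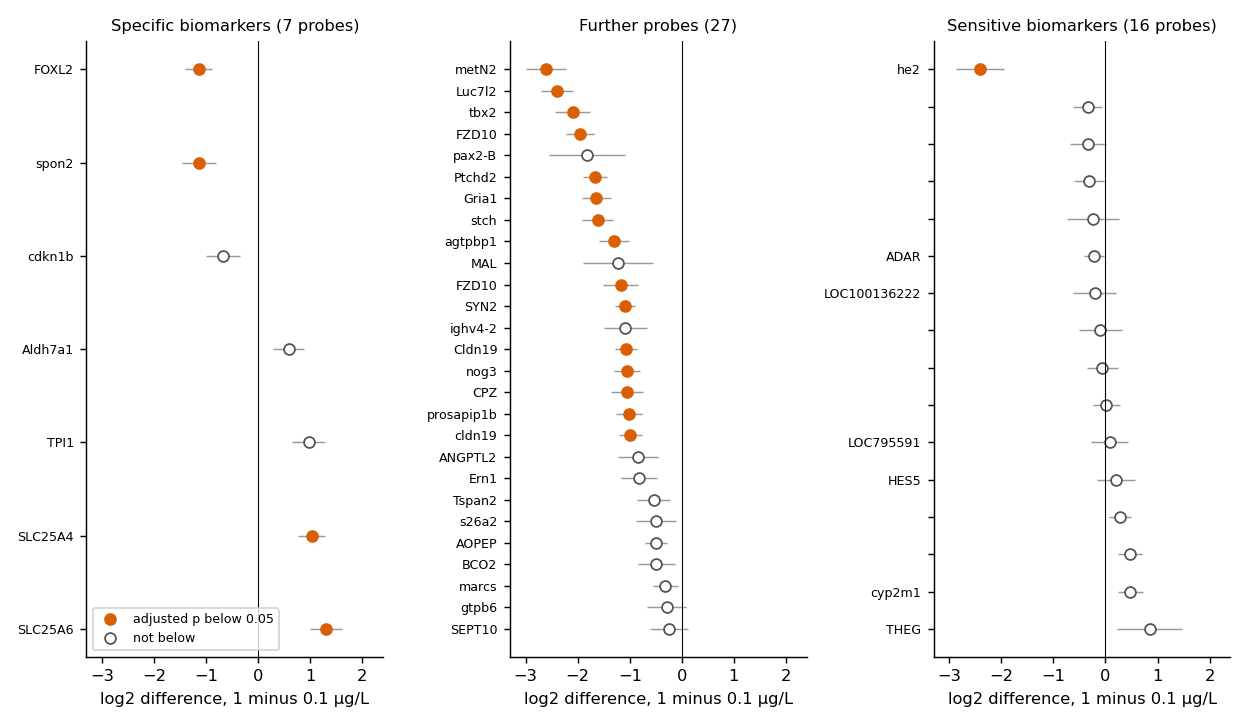
Log2 difference, 1 minus 0.1 μg/L (x axis), of the probes of 3 lists of the study: 7 specific biomarkers, 27 further probes of the study outside its enriched terms and 16 sensitive biomarkers, 1 probe per row (not every row is named). Points are differences and bars their SE; filled points passed an adjusted p of 0.05. Of the 27 further probes, 15 passed and all lay below 0, and 1 of the 16 sensitive biomarkers passed, beside 6.26% of all probes.

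Few other probes bear a gene name. The array design holds 78 probes that carry a gene name or a sequence accession. Of these, 2 were called lower in the step (beside 4.66% of all probes) and 0 higher (beside 1.6%, limma). At an unadjusted p below 0.05, 15 of the 78 were lower and 7 higher, beside 15871 of all 60195 probes in either direction (limma). Of the 2 called probes, the one with a gene name is labelled lipoprotein on the array (CUST_146_PI425708691). It was at 7.55, 8.29, 7.21, 7.94, 8.47 and 7.30 at 1 μg/L, against 10.56, 8.39, 8.94, 9.32, 9.33 and 8.28 at 0.1 μg/L. Replicate 1 at 0.1 μg/L was the highest pool, and the groups overlapped slightly. The difference was -1.34 ± 0.36 (SE, adjusted p = 0.023, limma), and its call was lost in 8 of 29 alternatives.

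The fixed gene list of stress and xenobiotic metabolism had 7 named probes, and none of them passed the test, beside 6.26% of all probes (limma). At an unadjusted p below 0.05, 2 of the 7 were higher, beside 15871 of all 60195 probes in either direction (limma). The differences of the 7 lay between -0.10 and 0.98, with a median of 0.55, beside -0.03 over all probes. The highest, 0.98 ± 0.81 (SE) for the cytochrome P450 gene cyp1a3, was 0.01 without replicate 1 at 0.1 μg/L. The closest was superoxide dismutase 1 (SOD1), an enzyme that removes superoxide. It was at 14.20, 13.92, 14.65, 14.67, 14.39 and 14.50 at 1 μg/L, against 12.88, 14.08, 13.79, 13.46, 14.31 and 13.27 at 0.1 μg/L. The difference was 0.75 ± 0.24 (SE, adjusted p = 0.0569, limma), and 0.61 (adjusted p = 0.108, limma) without replicate 1 at 0.1 μg/L, which was the lowest array for this probe of the middle. The glutathione peroxidases HPGPX1 and GPX1, as the array names them, differed by 0.73 ± 0.29 and 0.55 ± 0.29 (SE, adjusted p = 0.114 and 0.223, limma). Glutathione S-transferase (GST) and catalase, which act on toxic compounds and on hydrogen peroxide, differed by -0.08 ± 0.17 and -0.10 ± 0.20 (SE). Another cytochrome P450 gene, cyp2m1, differed by 0.48 ± 0.23 (SE, adjusted p = 0.190, limma), with 7.01 at 1 μg/L and 6.54 at 0.1 μg/L against 11.68 in controls. Outside the fixed list, the array also names SOD2, GR and Nrf2. These differed by 0.07, -0.004 and -0.62 and did not pass the test (limma).

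Wnt4 takes part in ovarian development of vertebrates. Wnt4a was not well above background on any of the 12 arrays. Wnt4b was at 7.61 to 7.99 in the pools at 1 μg/L and at 7.52 to 8.04 in 5 of the 6 pools at 0.1 μg/L, with replicate 1 at 1.86 in the dim region. Its difference of 1.16 ± 0.67 (SE, adjusted p = 0.263, limma) became 0.19 without that array.

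Probes without a gene name were ranked among those called, without overlap and well above background on all 6 arrays of the brighter group. The 2 with the largest differences in each direction are given here, the lower ones first. TC100702 was at 6.16, 6.01, 4.70, 6.18, 5.91 and 5.74 at 1 μg/L, against 12.28, 7.40, 11.16, 11.40, 12.53 and 10.62 at 0.1 μg/L. TC132050 gave 5.78, 5.02, 4.78, 5.34, 5.72 and 5.63 at 1 μg/L, against 11.99, 6.81, 10.92, 10.82, 12.19 and 9.89 at 0.1 μg/L. In both, replicate 2 at 0.1 μg/L came closest to the pools at 1 μg/L, and the values of the pair ran in parallel over the 30 arrays (Pearson's r = 0.991, given as a description). The signals were 34.7-fold and 33.3-fold lower at 1 μg/L (adjusted p = 0.000263 and 0.000293, limma). TC100702 averaged 10.55 in controls and 10.38 at 0.01 μg/L, close to its 10.90 at 0.1 μg/L, and 5.91 at 10 μg/L, so that it changed at this step alone among the 4 steps of the series by more than 1 log2 unit.

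Further shapes of decrease are shown by 3 probes that were picked with their values in view. CUST_12491_PI425536763, at 16.43 in controls, 16.41 at 0.01 and 16.56 at 0.1 μg/L, had means of 12.60 at 1 and 10.17 at 10 μg/L, so that it was lower still past the step. At 1 μg/L it was at 11.50, 11.40, 11.32 and 12.38 in tanks 1 and 2, and at 15.12 and 13.87 in the pools of tank 3. CUST_2321_PI425536763 was lower at every step up to 1 μg/L, with 14.69 in controls, 11.32 at 0.01, 6.74 at 0.1 and 2.74 at 1 μg/L. At 1 μg/L it was not well above background on any array, and its signal was at least 8.23-fold lower than at 0.1 μg/L. Over its 29 alternatives the log2 difference lay between -4.39 and -1.40. TC108170 peaked at 0.1 μg/L, with 5.33 in controls, 7.87 at 0.01, 9.70 at 0.1, 4.99 at 1 and 2.96 at 10 μg/L.

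Among the higher probes ranked in this way, CUST_22006_PI425536763 and CUST_120_PI425708691 had the largest differences. CUST_120_PI425708691 was at 12.94, 13.90, 10.55, 11.57, 9.87 and 8.30 at 1 μg/L, against 7.60, 7.46, 6.83, 6.16, 5.73 and 5.15 at 0.1 μg/L. Replicates 1 and 2 at 1 μg/L, both of tank 1, were the highest and replicate 6 the lowest. It was 26-fold higher at 1 μg/L (adjusted p = 0.000153, limma), and it averaged 3.21 in controls, 3.98 at 0.01 and 13.51 at 10 μg/L.

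CUST_22006_PI425536763 lies in the middle of the array. It was at 9.15 to 12.38 at 1 μg/L (median 10.72), against 1.86 to 8.37 at 0.1 μg/L (median 6.15), where replicate 1 gave the lowest value and lay far below the others. The difference was 4.98 ± 0.73 (SE, adjusted p = 0.000103, limma) and 4.19 (adjusted p = 0.000106, limma) without replicate 1 at 0.1 μg/L. TC129313, also picked with its values in view, was at 8.64 to 12.01 at 1 μg/L and at 7.11 to 7.87 at 0.1 μg/L, a 9.43-fold higher signal at 1 μg/L with all pools apart. In all 3 probes replicate 2 was the highest and replicate 6 the lowest pool at 1 μg/L.

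**Figure D5:**
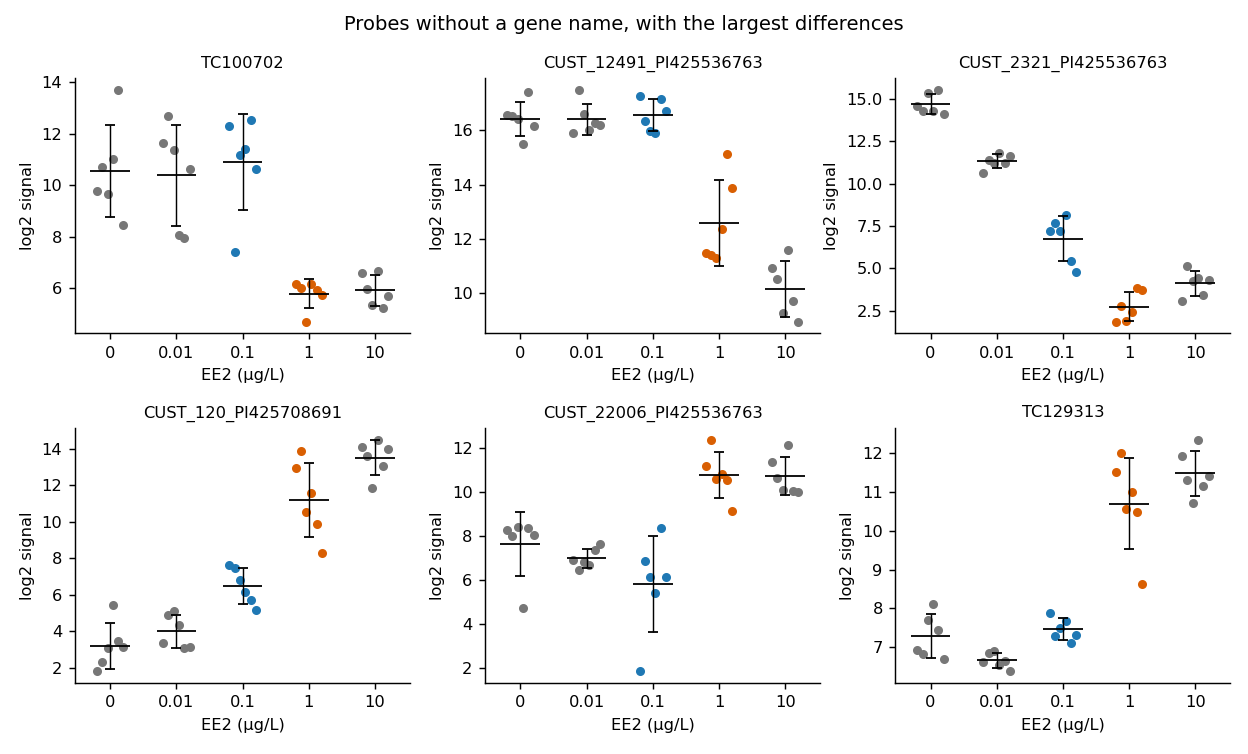
Normalised log2 signal (y axis) of 6 probes without a gene name over the nominal EE2 concentrations (x axis, 0 is the solvent control), with the pools at 0.1 μg/L in blue and those at 1 μg/L in orange. Points are arrays, and lines with bars are mean ± SD. TC100702 is near 10 to 11 log2 units up to 0.1 μg/L and near 6 from 1 μg/L on, CUST_2321_PI425536763 declines at each step to 1 μg/L, and the 3 probes of the lower row are higher at 1 μg/L than at 0.1 μg/L in every pool.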

How the data were processed

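The authors labelled the RNA of each pool with Cy3, hybridised it to 1 single-colour Agilent array and read the spots with Feature Extraction 10.7.3.1, per the file headers. The deposited processed signal is a background-adjusted intensity on a linear scale, not normalised between arrays, and the deposited flags mark outlier, saturated and well-above-background spots (0 probes were saturated on the 12 arrays). The authors also deposited a table of quantile-normalised log2 values, used here as an alternative. Their processing notes name R 2.15.3.

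Here control spots and outlier spots with another spot of the same probe were left out, replicate spots were averaged per probe, and the log2 values of the 30 arrays were quantile normalised. limma 3.58.1 in R 4.3.3 fitted 1 mean per concentration to all arrays without covariates, with eBayes and Benjamini-Hochberg adjustment over 60195 probes at a threshold of 0.05, and the fit was tested on simulated data. On an array of these groups 75.6 to 84.9% of probes were well above background; no read depth exists for arrays, and the number of arrays limits the precision. "At least" folds set the brighter group's mean against, per array, the higher of the probe's own signal and the lowest signal among probes well above background. They hold for the main processing only, and some alternatives gave smaller differences.

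Members and lists were chosen with earlier results of these data known. Named probes are those of the study's lists, probes with a gene name on the array that were called (up to 10 per direction) or belong to a fixed list, and per direction the 2 largest unnamed, non-overlapping probes; 5 more were chosen after their values were seen. Of the study's specific list 7 of 8 genes, and of the sensitive list 16 of 16, were identified as the single probe with the printed fold changes and p-values, which is no evidence for the values; some are not reported by name. Of 7 RefSeq names, 4 matched the RefSeq table (USDA_OmykA_1.1). The labels of 3 pairs of pools of the same concentration are exchanged between scanner files and the value table; the scanner files' labels were used. Replicate numbers of the 2 concentrations come from tanks and pools that are not shared.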

Additional observations from a re-analysis of the deposited data

Results flagged for a closer look

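In 13 of 134 groups of 6 pools examined for the named probes, 1 array lay far from the other 5 by Dixon's ratio of gap to range at its critical value; chance flags about 1 in 20 groups. At 0.1 μg/L, replicate 1, the array with the dim middle region, was the lowest for MAL (7.37, next 10.77), pax2-B (1.86, next 6.90), gtpb6 (9.84, next 11.08), THEG (8.62, next 13.03), cyp1a3 (1.86, next 6.83) and Wnt4b (1.86, next 7.52), all printed in the middle. Without this array the log2 differences were -1.84 for MAL, -2.77 for pax2-B, -0.55 for gtpb6, 0.08 for THEG, 0.01 for cyp1a3 and 0.19 for Wnt4b.

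At 0.1 μg/L, Ern1 was highest on replicate 6 (7.02, next 6.12), cyp2m1 lowest on replicate 4 (5.38, next 6.48) and TC100702 lowest on replicate 2 (7.40, next 10.62). At 1 μg/L, replicate 3 was the array apart in every case: it was the highest for SYN2 (6.72, next 6.57) and the lowest for agtpbp1 (7.52, next 8.11), si:dkey-162h11.2 (10.41, next 10.91) and TC100702 (4.70, next 5.74). This array also had the highest position of its group, 110.9%.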

How the results depend on the processing

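The main counts were 3769 called, 964 higher, 2805 lower and, with the same sign in 10 minus 0.01 μg/L, 3665. Scaling to the 75th percentile, which put the median difference of all probes at -0.20 in place of -0.03, gave 5678 called, 4714 lower and 5539 of the same sign. Tank means gave 2205, 447, 1758 and 2157 (in the order above), tank means with the value table's labels, chosen after seeing the data, 1657, 280, 1377 and 1630, array weights 12715, 6893, 5822 and 12172 (more higher than lower), and brightness as a covariate 1729, 265, 1464 and 1687. Leaving out 1 array gave 1695 to 5945 called, 242 to 2195 higher, 1453 to 3750 lower and 1660 to 5715 of the same sign. The higher count was also more than 1.5 times away without replicates 1 (1581), 2 (2195), 3 (358), 4 (330), 5 (1860) and 6 (402) at 0.1 μg/L and without 3 (242), 4 (359) and 6 (489) at 1 μg/L, and the lower count without replicate 3 at 0.1 μg/L (1816) and without replicate 3 at 1 μg/L (1453). The cause was not tested. Every other alternative run (among them normexp, the value table, the background filter, the 12 arrays alone, tank and slide blocks and the Scheffe criterion) stayed within 1.5 times. With the replicate number as a block 3698 probes were called (3497 with the value table's labels). Same-numbered pools correlated between -0.23 and 0.10. Of the 6 pools at 0.1 μg/L, 0 correlated best with the pool of their own number at 1 μg/L, and the block therefore pairs nothing but numbers.

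Of 67 named probes, 30 were called; 21 of these kept the call and the sign in every alternative and 9 lost the call in at least 1, none turning sign. Of the 37 not called, 10 passed in at least 1 alternative and 7 turned sign, all near 0: with percentile scaling LOC795591 (-0.378) and 2 probes not named here (-0.0033 and -0.276), with the slide as a block 1 of these (-0.0136), with array weights TC109048 (0.0092), and with brightness LOC795591 (-0.0191), TC122002 (0.142) and 1 probe not named here (-0.0036). Leaving out 1 array gave -0.2185 to 0.0511 for catalase, -0.1495 to 0.0196 for GST, -0.186 to 0.0319 for TC109048 and -0.0639 to 0.154 for 1 probe not named here. Probes not well above background are limited by the background, not by the number of arrays alone.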
